A study of Mus musculus with 8 samples.

Results

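Between D3 and D5 of reprogramming with the OSNK factors, the genome-wide map of 5-hydroxymethylcytosine (5hmC) kept most of its peaks, but the peaks were narrower and many broad ones were overlapped by several smaller ones. The width results rest on the D3 list, which had the widest peaks of the series. Median widths with OSNK were 690 bp at D1, 911 bp at D3 and 650 bp at D5. The members described here are all peaks of the OSNK D5 and OSNK D3 lists, 182259 of the 684512 peaks in the 8 lists of the series. Peaks were sorted by overlap of at least 1 bp. A D5 peak without a D3 peak is called new, a D3 peak without a D5 peak is called lost, and the others are called kept. These words describe presence in a list and not a measured gain or loss of the modification.

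5hmC is made from 5-methylcytosine by the TET enzymes and can be a step on the way to unmethylated cytosine or a stable mark. It is known to be frequent at enhancers and along transcribed genes, so that its map differs between cell types. Vitamin C, which the labels name as an addition to the medium during iPSC generation together with LIF, is known as a cofactor that raises TET activity.

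The study captured 5hmC-bearing DNA fragments by chemical labelling and sequenced them, with the aim of following 5hmC through reprogramming. The groups used here are OSNK D5, OSNK D3 and OSNK D1, OySyNyK D5, D3 and D1, all labelled reprogramming intermediates, and, as the end states, mouse induced pluripotent stem cells (iPSC, titled with the OySyNyK factors) and mouse embryonic fibroblasts (MEF). D is read as day. From general knowledge of the study, OSNK stands for Oct4, Sox2, Nanog and Klf4, and OySyNyK is the same mix with Oct4, Sox2 and Nanog joined to a transactivation domain of YAP. The protocol names OG2-MEFs, fibroblasts of a mouse line known to carry a green fluorescent reporter driven by Oct4 sequences. No sorting step is named, so an intermediate may mix cells at different stages, and fewer cells with 5hmC at a site cannot be told apart from less 5hmC per cell. The iPSCs were grown on MEF feeder cells, per the labels, so their list may hold some fibroblast DNA. Each group had 1 library, so no difference below was tested against a spread between cultures, and intervals on shares are exact (Clopper-Pearson) 95% intervals that cover counting error only. Depth was unknown for every library, and cell identity was not checked against marker genes, because no gene annotation of the lists' assembly was used here.

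The OSNK D5 list held 92762 peaks covering 70.2 Mb, and the OSNK D3 list held 89497 peaks covering 98.2 Mb. Peak number was thus close, while covered sequence at D5 was 71.5% of that at D3. The score that the authors deposited with each peak had a median of 81.3 at D5 and 91.4 at D3. The D3 list stood apart from the rest of the series by its widths. Its 10th percentile of width was 595 bp, against 424 to 550 bp in the other 7 lists, and its median of 911 bp compared with 641 to 841 bp in those lists. Peaks of 2 kb or more made up 7.25% of the D3 list, against 1.52% to 3.62% of the others. Some results are therefore also given with every peak set to 500 bp round its midpoint. These are the lost, new and split shares, the end-state overlap of new and lost peaks, and the 100-kb regions. Other results rest on the deposited widths. Among them are counts of bases, splitting by width, shares by score decile, and new and lost shares by end-state class. The shares of MEF and iPSC peaks overlapped on each day and overlaps with the D1 and OySyNyK lists also rest on them.

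Peak width was lower at D5 over the whole range of widths. The median was 650 bp at D5 and 911 bp at D3, the 10th percentile 433 bp at D5 and 595 bp at D3, and the 99th percentile 2240 bp at D5 and 3500 bp at D3. Peaks of 4 kb or more numbered 65 at D5 and 533 at D3. Peaks of like score were narrower at D5 as well. Among peaks scoring 50 to 60, the weakest, the median width was 512 bp at D5 and 704 bp at D3. Among peaks scoring 300 or more it was 1593 bp at D5 and 2078 bp at D3. The difference was thus present among low-scoring and high-scoring peaks. Depth was unknown for both libraries, so like scores need not mean like strength.

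**Figure D1:**
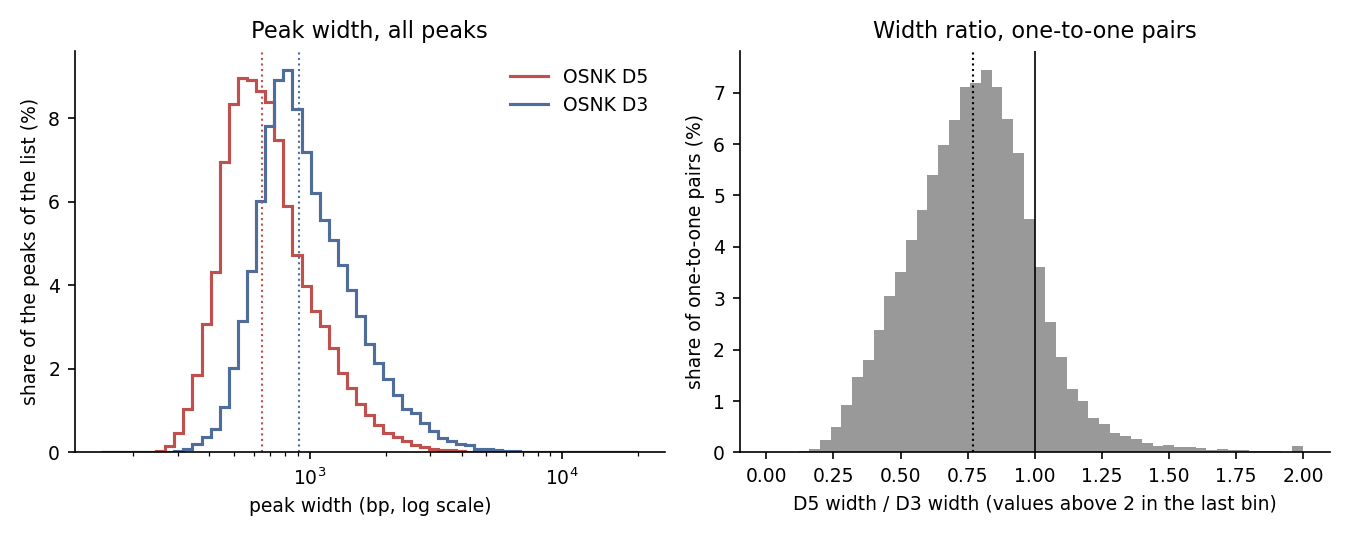
Left, share of peaks (%) against peak width (bp, log scale) for OSNK D5 and OSNK D3, with dotted lines at the medians of 650 and 911 bp. Right, share of the 52844 one-to-one pairs (%) against the D5 width over the D3 width, with a solid line at 1 and a dotted line at the median of 0.77; most pairs lie below 1.

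The same narrowing was seen peak by peak. Of the 59378 kept D3 peaks, 52844 (89.0%) formed one-to-one pairs, in which 1 D3 peak and 1 D5 peak overlapped only each other. In these pairs the median width was 704 bp at D5 and 955 bp at D3, and the median of the D5 over D3 ratio was 0.77 (quartiles 0.62 and 0.91). The D5 peak was the narrower one in 86.4% of pairs. It lay wholly inside the D3 peak in 61.7% of pairs and wholly around it in 4.38%. The 2 edges were set back alike, by a median of 88 bp at the lower-coordinate edge and 90 bp at the other, and the midpoints differed by a median of 74 bp.

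How the ratio ran with width depended on which width was used. By D3 width, the median ratio was 0.82 for 28719 pairs with a D3 peak below 1 kb, 0.71 for 20911 pairs of 1 to 2 kb and 0.60 for 3133 pairs of 2 to 4 kb. It was 0.73 for the 81 pairs of 4 kb or more, which are the few such D3 peaks left whole. By D5 width it ran the other way, with 0.74 below 1 kb, 0.89 at 1 to 2 kb and 0.94 at 2 to 4 kb. By the mean of the 2 widths it was 0.77, 0.76 and 0.83 in the same ranges, so that the D5 peaks were narrower in each range and no trend held in all 3 groupings. Scores differed too, and the D5 score was the lower one in 59.8% of pairs. The D5 peak was narrower also where its score was not lower. In the 21266 pairs whose D5 score was at least the D3 score, the median ratio was 0.85 and 77.6% of D5 peaks were narrower. In the 31578 other pairs the median ratio was 0.71 and 92.3% were narrower. Scores come from separate libraries of unknown depth, and the part of depth or of peak calling in the widths was not tested.

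A smaller group of D3 peaks was overlapped by several D5 peaks. These split peaks numbered 5443, which is 6.08% of all D3 peaks and 9.17% of the kept ones (95% interval 8.94 to 9.40). Of them, 4804 had 2 D5 peaks, 535 had 3, 86 had 4, 13 had 5, 2 had 6 and 3 had 7. The reverse, a D5 peak over 2 or more D3 peaks, was found 826 times, in 1.28% of the kept D5 peaks (1.19 to 1.37). With every peak set to 500 bp the split share was 2.11%. A window of 500 bp leaves out most of a broad peak, so this setting can show little of splitting.

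Splitting went with width. Of D3 peaks of 0.5 to 1 kb, 0.613% were split (95% interval 0.546 to 0.686), of those of 1 to 2 kb 7.63% (7.33 to 7.93), of those of 2 to 4 kb 39.2% (38.0 to 40.5), and of the 533 peaks of 4 kb or more 83.9% (80.5 to 86.9). Loss ran the other way. No D5 peak overlapped 42.1% of D3 peaks of 0.5 to 1 kb, 23.4% of those of 1 to 2 kb, 6.86% of those of 2 to 4 kb and 2 of the 533 broadest. Broad D3 peaks were thus often overlapped by several D5 peaks and seldom by none, and the reverse held for narrow ones. A wider peak can reach more peaks of any list. Median score differed too, at 74.8 for D3 peaks of 0.5 to 1 kb and 607 for the broadest. The part of each in these shares was not tested. Earlier peaks of 4 kb or more were split in like steps too. The shares were 69.7% of 76 in OySyNyK D3 to D5, 64.8% of 54 from OSNK D1 to D5 and 37.0% of 54 in OSNK D1 to D3. Of the sequence in D3 peaks of 4 kb or more, 74.8% was still inside D5 peaks.

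**Figure D2:**
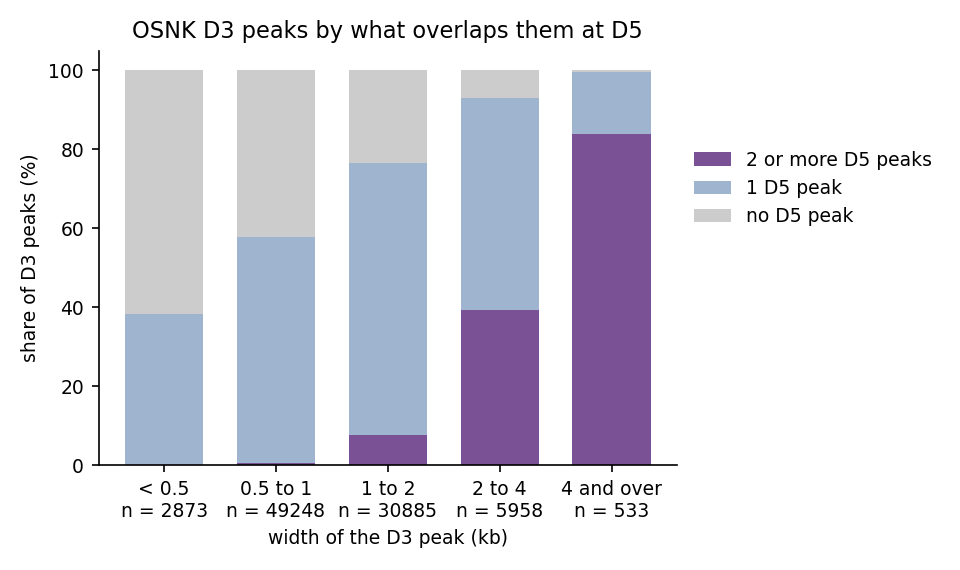
Share of OSNK D3 peaks (%) overlapped by 2 or more, 1 or no D5 peak, stacked to 100%, by the width of the D3 peak (kb), with the number of D3 peaks under each bar. The split share reaches 83.9% in the 533 peaks of 4 kb or more, in which 2 peaks were lost.

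The breaks inside split peaks were short. The 5443 split peaks had a median width of 2026 bp and a median score of 255, against 955 bp and 108 for kept peaks with 1 D5 peak. Their 11655 overlaps with D5 peaks left 6212 gaps with a median of 129 bp (quartiles 56 and 279), and 88.4% of the gaps were shorter than 500 bp. At the median, 79.1% of a split peak's width was covered by D5 peaks, close to the 75.5% of kept peaks with 1 D5 peak. Merging peaks within 1 kb of each other before the comparison left a split share of 5.27%.

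Many split peaks already held peaks at OSNK D1. There, 33.4% of them held 2 or more peaks, 57.2% held 1 and 9.42% held none, while 4.57% of kept peaks with 1 D5 peak held 2 or more D1 peaks. Wider peaks can reach more peaks of any list, and the part of width in these shares was not tested. In MEF 13.3% held 2 or more peaks and 46.2% held 1, and in iPSC 7.92% held 2 or more and 26.6% held 1. With the other method on the same day, OySyNyK D3, 42.0% held 2 or more peaks. The gaps that opened at D5 were covered to 35.8% of their bases by MEF peaks, 60.2% by OSNK D1 peaks and 7.39% by iPSC peaks. The whole split peaks were covered to 38.5%, 64.1% and 15.1% by the same lists. OySyNyK peaks covered 43.2% of the gaps and 62.7% of the split peaks at D3, and 23.4% of the gaps and 47.2% of the split peaks at D5. Cover of the gaps was thus near that of the whole split peaks in MEF and at OSNK D1, and below it at OySyNyK D3 and D5 and in iPSC.

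The 5 D3 peaks overlapped by the most D5 peaks were 7042 to 9478 bp wide. Positions are given in the lists' own mouse assembly, counted from 1, and were not assigned to genes. The D3 peak on chromosome 15 at positions 25580117 to 25589594 had a score of 1369 and a width of 9478 bp. It was overlapped by 4 MEF peaks, 6 OSNK D1 peaks, 7 OSNK D5 peaks and 3 iPSC peaks. The D5 peaks covered 71.8% of it, and the D1 peaks had covered 86.6%. This stretch was thus called as several peaks in every one of these lists but D3.

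On chromosome 9, the D3 peak at positions 99315862 to 99324892 was overlapped by 1 MEF peak, 5 D1 peaks, 7 D5 peaks and no iPSC peak. The cover of this D3 peak was 10.3% in MEF, 53.0% at D1 and 75.7% at D5. Of the 5 peaks, it was the one without an iPSC peak. On chromosome 6, positions 31069426 to 31078054 were overlapped by 7 D5 peaks, which covered 81.7% of the D3 peak, against 42.4% in MEF and 13.9% in iPSC. The D3 peak of chromosome 7 at 86425324 to 86434201 was overlapped by 6 D5 peaks, which covered 79.2%. The second D3 peak on chromosome 15, at positions 85916269 to 85923310, was overlapped by 6 D5 peaks covering 88.6%. In all 5 the D5 peaks covered more than the iPSC peaks and more than the MEF peaks. The 5 were chosen by their number of D5 peaks, which favours D5 cover, so this order says nothing on the end states.

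The 5 widest D3 peaks were other peaks than the 5 overlapped by the most D5 peaks, and all but the fifth were split. The widest, on chromosome 5 at positions 114809472 to 114826880, measured 17409 bp and had a score of 291, and it was overlapped by 4 D5 peaks covering 79.2%. The next, on chromosome 11 at positions 117166749 to 117179717, measured 12969 bp and was overlapped by 4 D5 peaks covering 88.4%. The peak of 12029 bp on chromosome 15 at positions 76002464 to 76014492 was overlapped by 2 D5 peaks covering 93.1% and lay wholly inside 1 iPSC peak. The peak of 11012 bp on chromosome 5 at positions 65204893 to 65215904 was overlapped by 2 D5 peaks covering 97.4%. The fifth, on chromosome 10 at positions 80757052 to 80766915, was left whole, with 1 D5 peak of 9755 bp covering 98.9% of it. On score the 5 differed. The best overlapping D5 peak scored 1233 on the widest, on chromosome 5, and 882 on chromosome 11, above the D3 scores of 291 and 156, while it scored 99.1 on chromosome 15 and 524 on chromosome 10, below the D3 scores of 612 and 622. Cover of these 5 was between 79.2% and 98.9% at D5, above their iPSC cover except on chromosome 15.

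The strongest peaks were picked out after their values were seen. The highest D3 score, 3203, was that of a peak on chromosome 19 at positions 5825849 to 5832978, which was overlapped by 2 D5 peaks scoring up to 1680 and an iPSC peak of 53.7. The highest D5 score lay on chromosome 17. A D5 peak at positions 35639164 to 35647479 and a D3 peak at positions 35639303 to 35647484 both had a score of 3100. The peaks there scored up to 714 in MEF, 896 at OSNK D1 and 3100 at D3, D5 and in iPSC. A score of 3100 was also the highest of the OSNK D1, OySyNyK D3, OySyNyK D5 and iPSC lists. Whether 3100 is a ceiling of the score was not tested. Scores of 3100 are therefore not read as equal strength, nor ranked against 3203. The neighbouring peak at 35635874 to 35639148 had a score of 2972 at D5, against 2702 for the D3 peak at 35635895 to 35639075. Neither of these D3 peaks was split, and the D5 peaks, of 8316 and 3275 bp, were wider than the D3 peaks, of 8182 and 3181 bp.

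New and lost peaks were numerous and mostly weak. Of the D5 peaks, 28007 were new, which is 30.2% (95% interval 29.9 to 30.5), and of the D3 peaks, 30119 were lost, which is 33.7% (33.3 to 34.0). The median score was 63.2 for new and 68.4 for lost peaks, against 96.1 for kept D5 and 115 for kept D3 peaks. The median new peak stood at the 28.0th percentile of the D5 list by score and the median lost peak at the 28.7th percentile of the D3 list. New peaks were also narrow, with a median of 537 bp against 713 bp for kept D5 peaks. Lost peaks had a median of 787 bp against 1001 bp for kept D3 peaks.

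The share without a partner was lower in each higher score decile. In the lowest-scoring decile of each list, 57.5% of D5 peaks were new (95% interval 56.5 to 58.5) and 63.1% of D3 peaks were lost (62.1 to 64.1). In the highest-scoring decile, 0.474% were new (0.345 to 0.636) and 1.14% were lost (0.930 to 1.38). The new share was below the lost share in 10 of 10 deciles. A peak of at least 100 in score seldom lacked a partner of any score on the other day. This held for 2404 of 32993 such D5 peaks (7.29%, 7.01 to 7.57) and for 5175 of 39719 such D3 peaks (13.0%, 12.7 to 13.4). Most high-scoring peaks thus had a partner of some score on the other day. Where both days had to score at least 100, 26.3% of D5 peaks were new and 42.6% of D3 peaks lost. High-scoring peaks were also wider. Median width in the lowest and highest deciles was 497 and 1219 bp at D5, and 697 and 1845 bp at D3. The part of width in these shares was not tested.

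**Figure D3:**
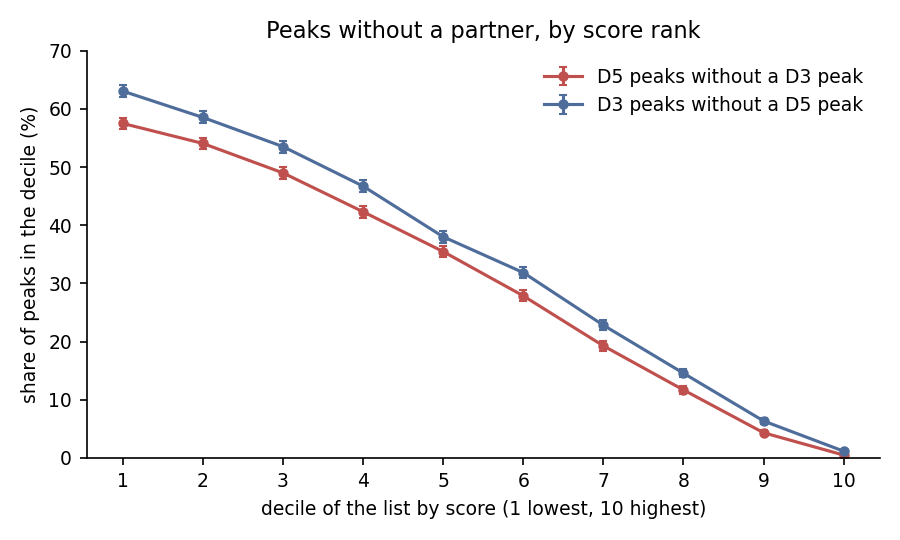
Share of D5 peaks without a D3 peak and of D3 peaks without a D5 peak (%), against the decile of the list by score, from 1 for the lowest to 10 for the highest; bars are exact 95% intervals. Both shares go down from over 57% to under 1.2%, and the D5 points lie below the D3 points in every decile.

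Equal numbers of peaks gave nearly the same shares. With the 89497 best-scoring peaks of each day, 29.2% of D5 peaks were new and 34.9% of D3 peaks were lost. With the 54938 best-scoring peaks of each list, 30.5% were new and 35.6% lost. Of the 16738 new peaks in that setting, 46.7% did overlap a D3 peak that had scored too low to be included, and of the 19561 lost peaks 44.7% overlapped a lower-scoring D5 peak. The order of the 2 shares turned with 500-bp peaks and with equal covered length. With 500-bp peaks 38.2% were new and 37.3% lost. With 500-bp peaks in equal numbers the order did not turn, as 39.9% were new and 40.7% lost. With the D3 list shortened to the 54594 best-scoring peaks, which cover as much sequence as the D5 list but have a higher lowest score, 46.7% were new and 19.5% lost.

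Counted in bases, cover was 28.0 Mb lower at D5. Net of the bases found at D5 only, 18.2 Mb (64.8%) of this lay in kept peaks and 9.87 Mb (35.2%) was the excess of lost over new peaks. Peaks of both days shared 51.1 Mb. The bases found at D5 only were 16.4 Mb in new peaks and 2.69 Mb in kept peaks. The bases found at D3 only were 26.3 Mb in lost peaks and 20.8 Mb in kept peaks. Of those in kept peaks, 17.8 Mb lay in D3 peaks with 1 D5 peak, 1.66 Mb at the outer edges of split peaks and 1.40 Mb in gaps between D5 peaks. The gaps made by splitting were thus 2.97% of all sequence found at D3 only. Edges of kept peaks with 1 D5 peak held 37.8% of it and lost peaks 55.8%.

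New and lost peaks differed in their relation to the end states. Of all D5 peaks 31.2% and of all D3 peaks 36.8% overlapped a MEF peak, and 18.1% and 16.7% overlapped an iPSC peak. MEF peaks were overlapped by 13.0% of new peaks (95% interval 12.6 to 13.4) and by 29.6% of lost peaks (29.1 to 30.2). For iPSC the order was reversed, with 14.1% of new peaks (13.7 to 14.6) and 7.21% of lost peaks (6.92 to 7.51). Kept D5 peaks overlapped MEF in 39.0% and iPSC in 19.9%, above the new peaks in both. New peaks thus overlapped MEF less and iPSC more often than lost peaks did. Most peaks of both lists lay in neither end state, 58.8% of all D5 and 55.2% of all D3 peaks. The share was 75.7% of new and 66.1% of lost peaks.

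By score decile the direction was the same. New peaks overlapped MEF less than lost peaks in 10 of 10 deciles, and iPSC more than lost peaks in 10 of 10 deciles. In the lowest decile, MEF overlap was 11.4% of new and 22.5% of lost peaks, and iPSC overlap was 10.9% of new and 6.61% of lost peaks. In decile 9, MEF overlap was 17.5% of 400 new peaks and 53.3% of 567 lost peaks, and iPSC overlap was 24.8% of new and 9.88% of lost peaks. In the highest, MEF overlap was 18.2% of 44 new and 59.8% of 102 lost peaks, and the intervals for iPSC met, at 15.0 to 42.8% for new and 6.96 to 20.8% for lost peaks. Lost peaks were wider than new ones. With 500-bp peaks MEF overlap was 14.8% of new and 26.7% of lost peaks, and iPSC overlap was 14.4% of new and 6.50% of lost peaks.

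**Figure D4:**
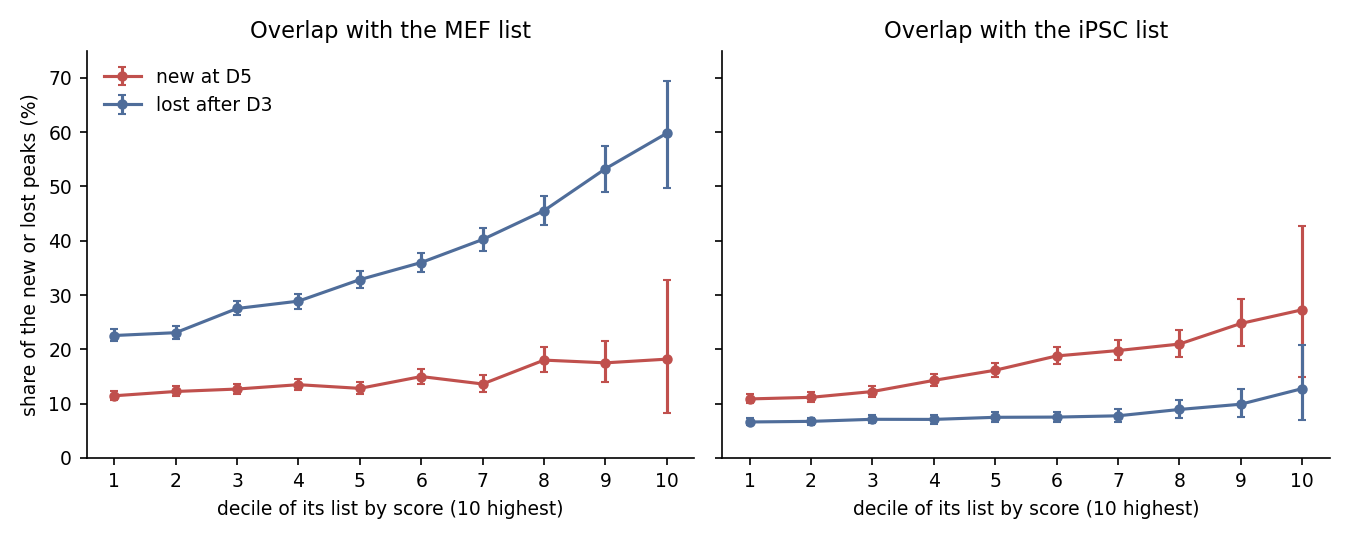
Share of new D5 peaks and of lost D3 peaks (%) that overlap a MEF peak (left) or an iPSC peak (right), against the decile of their own list by score; bars are exact 95% intervals. New peaks lie below lost peaks for MEF and above them for iPSC in every decile, and the iPSC intervals meet in the highest decile.

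Seen from the D3 side, the fate of a peak went with its end states. Of 25128 D3 peaks with a MEF but no iPSC peak, 32.0% were lost at D5 (95% interval 31.4 to 32.6). Of 7156 with an iPSC but no MEF peak, 17.9% were lost (17.0 to 18.8), and of 7789 with both, 11.4% (10.7 to 12.1). Of 49424 with neither, 40.3% were lost (39.9 to 40.7). Over all D3 peaks the lost share was 33.7%. The class with a MEF but no iPSC peak was near it, and the classes with an iPSC peak were below it. The classes differed in score, with medians of 109 for MEF only, 98.3 for iPSC only and 165 for both. Among D3 peaks above the median score of their list, 16.5% of the MEF-only class, 7.22% of the iPSC-only class, 4.62% of those with both and 19.3% of those with neither were lost. The iPSC-only class was thus lost less often than the MEF-only class although its median score was lower.

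On the D5 side, 34.1% of the 9251 peaks with an iPSC but no MEF peak were new, against 13.3% of the 21349 with a MEF but no iPSC peak and 10.7% of the 7576 with both. Among the 54586 D5 peaks with neither, 38.8% were new. Over all D5 peaks the new share was 30.2%, so the iPSC-only class was near it and the classes with a MEF peak were below it. The new share also went with the OSNK D1 list. Of iPSC-only D5 peaks, 9.55% of the 3886 with a D1 peak and 51.8% of the 5365 without one were new. Over all D5 peaks these shares were 12.2% and 57.2%. Measured on the iPSC list itself, 30.9% of its 54938 peaks were overlapped at D5 and 28.9% at D3. Of these iPSC peaks 7.26% were overlapped at D5 and not at D3, and 5.30% at D3 and not at D5. On the MEF list, 5.16% of 65776 peaks were overlapped at D5 and not at D3, and 14.4% at D3 and not at D5. More iPSC peaks were thus overlapped at D5 alone than at D3 alone, and fewer MEF peaks were. These shares rest on the deposited widths, with 70.2 Mb covered at D5 and 98.2 Mb at D3. The part of covered length in them was not tested.

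Some new peaks had been called before. An OSNK D1 peak was overlapped by 55688 of the 92762 D5 peaks and by 64842 of the 89497 D3 peaks (72.5%). Of the new D5 peaks, 24.3% overlapped an OSNK D1 peak (95% interval 23.8 to 24.8) and so were missing from the D3 list between 2 days on which they were called. A further 4.42% overlapped a MEF peak but no D1 peak. The other 71.3% overlapped neither D1 nor MEF, against 22.1% of kept D5 peaks. Of lost D3 peaks 63.2% overlapped a D1 peak, 27.3% both a D1 and a MEF peak, and 34.4% neither. Of kept D3 peaks 20.7% overlapped neither. The lost peaks without D1 or MEF peak, 10370 in number, were called at D3 and on no earlier and no later day of OSNK.

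The other method gave a further view of the same sites. Of new peaks 35.0% overlapped an OySyNyK D3 peak and 28.4% an OySyNyK D5 peak. Of lost peaks 34.7% overlapped an OySyNyK D3 peak and 17.3% an OySyNyK D5 peak. OSNK D5 peaks that were kept overlapped OySyNyK D5 in 54.6%. No peak of any of the other 6 lists overlapped 37.5% of new peaks (95% interval 36.9 to 38.0) and 21.5% of lost peaks (21.0 to 21.9). Over all peaks these shares were 16.5% at D5 and 11.6% at D3, and OySyNyK D3 peaks overlapped 60.2% of all D5 and 59.7% of all D3 peaks. New and lost peaks were thus both less often shared than the peaks of their lists.

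The strongest new peaks had lower scores than the strongest lost ones. The 90th percentile of score was itself lower in the D5 list, at 189 against 243.5 at D3. Depth was unknown, so the scores do not compare strength between the 2 days. The 5 highest-scoring new peaks scored 226 to 246 and the 5 highest-scoring lost peaks 349 to 475. The strongest new peak, on chromosome 7 at positions 120203078 to 120203902, had a score of 246 and overlapped no peak in MEF, at OSNK D1 or in iPSC, but 1 peak at OySyNyK D3. On chromosome 5, the new peak at positions 32463700 to 32464191 scored 240 and overlapped a D1 peak of 220, an iPSC peak of 193 and, over 4.07% of its width, a MEF peak. On chromosome 1, the new peak at positions 170221399 to 170222660 scored 236 and lay in a MEF peak of 413 and a D1 peak of 319, while the D3 list lacked it. The new peak on chromosome 17 at positions 27723640 to 27724707 scored 231 and overlapped a MEF peak of 169 and an iPSC peak of 60.9. The last, on chromosome 1 at positions 55807106 to 55808767, scored 226 and overlapped a MEF peak of 50.9, near the lowest score called. Of these 5, 2 had an iPSC peak and 4 had a MEF peak. Over all D5 peaks, 18.1% overlapped an iPSC peak and 31.2% a MEF peak.

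The strongest lost peaks were 1920 to 2604 bp wide. On chromosome 2, the lost peak at positions 72188327 to 72190634 scored 475 and overlapped a MEF peak of 521 and a D1 peak of 946. On chromosome 17, the lost peak at positions 67612770 to 67614708 scored 444, with a MEF peak of 140 and D1 peaks of up to 385. On chromosome 1, the lost peak at positions 54770170 to 54772773 scored 379, with MEF peaks of up to 293 and D1 peaks of up to 520. The lost peak on chromosome 13 at positions 5843230 to 5845320 scored 371, with a MEF peak of 513 and a D1 peak of 804, and that on chromosome 16 at positions 21837051 to 21838970 scored 349, with no MEF peak and a D1 peak of 371. Of these 5, 4 had a MEF peak, 5 had a D1 peak and none had an iPSC peak. Over all D3 peaks, 36.8% overlapped a MEF peak, 72.5% a D1 peak and 16.7% an iPSC peak. Among the 102 lost peaks of the highest-scoring decile, 59.8% overlapped a MEF peak and 12.7% an iPSC peak. The 5 strongest new peaks also had a MEF peak in 4 cases. For the 5 strongest lost peaks, the nearest D5 peak was 275 to 4882 bp away.

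New and lost peaks lay in sparser surroundings than kept ones. The distance to the nearest other D5 peak had a median of 3390 bp for new and 1658 bp for kept D5 peaks. The distance to the nearest other D3 peak had a median of 3407 bp for lost and 1944 bp for kept D3 peaks. New peaks lay a median of 3358 bp from the nearest D3 peak, with 24.6% within 1 kb, 50.9% between 1 and 10 kb and 24.5% farther away. Few were near misses of the overlap rule, as 2.84% of new and 2.04% of lost peaks had a peak of the other day within 100 bp. Few overlaps were marginal either, as 0.394% of kept D5 and 0.352% of kept D3 peaks were covered to less than 10%.

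Autosomes behaved alike. The new share per autosome was between 27.9% and 32.2%, and the lost share between 29.7% on chromosome 17 and 36.7% on chromosome 6. The share of kept D3 peaks that were split was between 7.87% on chromosome 6 and 11.7% on chromosome 15. On the X chromosome, 190 of 360 D5 peaks were new, which is 52.8% (95% interval 47.5 to 58.0), and 253 of 418 D3 peaks were lost, which is 60.5% (55.7 to 65.2). X peaks were weak, with a median score of 64.0 at D5 and 69.7 at D3, and the part of score in their turnover was not tested.

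Over 16203 regions of 100 kb with a peak on either day, cover at D5 was lower than at D3 in 13047 and higher in 3155. Cover on the 2 days ran in parallel, with Pearson's r of 0.96 and Spearman's rho of 0.91 over these regions, which come from the same 2 libraries and are not independent. A difference of at least 10 percentage points downward was found in 193 regions (1.19%) and upward in 0 (0%). The 193 regions, chosen by D3 and D5 cover, had a mean cover of 16.5% in MEF, 24.5% at D1, 32.0% at D3, 19.8% at D5 and 5.91% in iPSC, and iPSC cover was above MEF cover in 12 of them (6.22%), against 27.0% of all regions. The choice of regions fixes a high D3 cover, and over all 16203 regions the means were 3.77%, 5.55%, 6.06%, 4.33% and 2.45% in the same order of lists. With every peak set to 500 bp, 0 regions were lower and 1 was higher by at least 10 points, and with equal covered length 27 were lower and 9 higher.

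The 5 regions with the largest differences downward rested on peak width. With 500-bp peaks their differences were 1.98, 0.411, 2.00, 5.50 and -0.500 points in the order named here. Positions 92900001 to 93000000 of chromosome 1 had a cover of 42.9% at D5 and 65.4% at D3, a difference of -22.5 points, with 37.8% in MEF and 5.22% in iPSC. Positions 126300001 to 126400000 of chromosome 3 had a cover of 35.8% at D5 and 57.1% at D3, beside a MEF cover of 10.9% and an iPSC cover of 0.416%. MEF cover in this region was the lowest of the 5. The regions from 119800001 to 119900000 on chromosome 10 and from 120700001 to 120800000 on chromosome 14 differed by -18.8 points each, and that from 27700001 to 27800000 on chromosome 15 by -18.6 points. The lower cover did not go with fewer peaks: the regions held 25 to 48 D5 peaks and 26 to 45 D3 peaks, and D5 peaks were the more numerous in all but the one on chromosome 15, with 25 at D5 and 26 at D3. The ratio of D5 to D3 cover was 0.58 to 0.73 in these regions, beside 71.5% for the lists as a whole.

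The 5 largest differences upward were smaller, and with 500-bp peaks they were 4.50 to 8.00 points. The largest was a region of chromosome 18 with 19.2% cover at D5 and 11.2% at D3, where 14 of 25 D5 peaks were new and no D3 peak was lost. Positions 165900001 to 166000000 of chromosome 2 had a cover of 53.0% at D5 and 46.9% at D3, beside a MEF cover of 24.6% and an iPSC cover of 19.2%. Positions 18700001 to 18800000 of chromosome 16 had a cover of 9.35% at D5 and 3.30% at D3, and 10 of 14 D5 peaks were new. The regions from 113600001 to 113700000 on chromosome 5 and from 87700001 to 87800000 on chromosome 17 differed by 5.41 and 5.29 points. Over peaks scoring 100 or more, the 5 differences were 0.760, -0.893, 0.770, 3.42 and 2.20 points in the order named, so that the one on chromosome 2 was downward.

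Set beside OSNK D1 to D3 and OySyNyK D3 to D5, D3 to D5 of OSNK had the lowest width ratio and the highest split share. The steps from MEF to D1 and OySyNyK D1 to D3 were not compared. The median ratio of later to earlier width in one-to-one pairs was 0.77 for OSNK D3 to D5, 0.98 for OySyNyK D3 to D5 and 1.19 for OSNK D1 to D3. The split share of kept peaks was 9.17% (95% interval 8.94 to 9.40), 3.56% (3.40 to 3.73) and 2.49% (2.38 to 2.61) for the same steps. With 500-bp peaks it was 2.11%, 0.659% and 0.266%. The OSNK steps share the D3 list, whose width enters both in opposite directions. With D3 left out, OSNK D5 set directly against OSNK D1 had a median ratio of 0.92 and a split share of 6.05% (5.85 to 6.25). Both values lay between those of the 2 OSNK steps.

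Overlap with the end states had the same direction in each of these steps. MEF peaks were overlapped by 13.0% of new and 29.6% of lost peaks in OSNK D3 to D5, by 16.0% of new and 29.0% of lost peaks in OySyNyK D3 to D5, and by 7.52% of new and 40.9% of lost peaks from OSNK D1 to D5. iPSC peaks were overlapped by 14.1% of new and 7.21% of lost peaks in OSNK D3 to D5, by 26.9% of new and 8.83% of lost peaks in OySyNyK D3 to D5, and by 17.2% of new and 4.58% of lost peaks from OSNK D1 to D5. In OSNK D1 to D3, MEF peaks were overlapped by 8.16% of new and 39.5% of lost peaks, and iPSC peaks by 15.5% and 4.91%. The lost share was 33.7% in OSNK D3 to D5 and 47.0% in OySyNyK D3 to D5, whose lists held 70592 peaks at D5 and 93694 at D3. The iPSC line carries the OySyNyK factors, so the factor mix and the end state chosen cannot be told apart in the iPSC overlap of the 2 methods.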

How the data were processed

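Per the labels' protocols, sonicated DNA was labelled at 5hmC with an azide-bearing glucose, biotinylated, captured on streptavidin, released and sequenced. The authors deposited 1 peak list per library. Reads were handled with Bowtie and MACS, per the submitters' processing notes. Their versions and settings, and any control library, were not given in the sources used here. The deposited score of each peak has a lowest value of 50; MACS is known to write -10 times the log10 of the p-value there, which would make 50 a p-value of 1e-05. Depth is unknown, so no floor or interval uses it.

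The named builds, hg18 and NCBI36, are human, while the lists hold 20 mouse chromosomes. Peaks passed the last GRCm38 gene on 10 of them, so the lists are in another mouse assembly, and no gene, promoter or sequence was assigned. An account of peaks by gene feature, which had been planned, was left out for that reason.

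Scripts ran under Python 3.11.15. Tables were read with pandas 2.3.3, intervals came from scipy 1.17.1 and overlaps from code using numpy 2.4.6. For overlaps, bedtools 2.31.1 gave the same counts for 6 ordered pairs of lists, and the scripts were tested on simulated data. Figures used matplotlib 3.10.9. Equal numbers means the best-scoring peaks, ties by place in the list. Deciles and percentiles rank a peak within its own list. Named regions and peaks are the 5 most extreme of each kind: 100-kb regions by D5 minus D3 cover, D3 peaks by number of D5 peaks and by width, new and lost peaks by score. Alternatives were a 50% overlap, a score of at least 100, equal numbers, 500-bp peaks, equal covered length and merging within 1 kb. Comparisons within score deciles and of OSNK D1 with D5, and regions and other steps under the width settings, were added after seeing the data. Members and lists were chosen with earlier results of these data known.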

Additional observations from a re-analysis of the deposited data

Results flagged for a closer look

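Between D3 and D5 the 2 methods moved in opposite directions in 4 measures of the peak lists. With 1 library per group, none of these differences was tested. The number of peaks was higher by 3265 at D5 than at D3 with OSNK and differed by -23102 with OySyNyK. Median peak width differed by -261 bp with OSNK and by 23 bp with OySyNyK, and mean peak width by -341 bp with OSNK and 22.1 bp with OySyNyK. The share of peaks of 2 kb or more differed by -5.63 percentage points with OSNK and by 0.0775 with OySyNyK. The 3 width measures rest on the OSNK D3 list, the one with the widest peaks of the series, whose median was 911 bp against 680 bp at OySyNyK D3. At D5 the medians were 650 bp with OSNK and 703 bp with OySyNyK.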

How the results depend on the processing

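Of 89 alternative values, 17 stayed within the counting interval of the reported value, or within 1.5 times a count, and 72 moved. New minus lost overlap kept its sign for MEF and for iPSC, while the lost share was below the new share with 500-bp peaks and with equal covered length. The lost share, 33.7%, was 42.1% where 50% of a peak had to be overlapped, 42.6% with a score of at least 100, 34.9% with as many peaks as the shorter of the pair, 35.6% with as many as the shortest list, 37.3% with 500-bp peaks, 40.7% with both of these, 19.5% with equal covered length and 32.2% with peaks within 1 kb merged. The new share, 30.2%, was 31.2%, 26.3%, 29.2%, 30.5%, 38.2%, 39.9%, 46.7% and 30.3% in the same order. The split share of kept peaks was 8.60%, 6.97%, 8.95%, 8.12%, 2.11%, 1.30%, 11.8% and 5.27%. The width ratio was 0.81, 0.79, 0.77 and 0.78 in the first 4 settings, 0.76 with equal covered length, 0.79 after merging and 0.80 for the pairs in the same score decile of both lists, a setting chosen after seeing the data; with peaks of fixed width it has no meaning.

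The MEF overlap of new minus lost peaks, -16.6 points, was -15.6, -18.0, -16.5, -18.9, -11.9, -13.2, -21.1 and -16.6 in that order, and the iPSC overlap, 6.93 points, was 7.99, 4.42, 7.07, 8.73, 7.89, 9.87, 6.71 and 6.78. The mean over score deciles, chosen after seeing the data, was -22.5 and 9.44 points. Regions of 100 kb lower by at least 10 points at D5 numbered 203, 213 and 141 with a score of at least 100 and with the 2 equal numbers, where 0 were higher by as much. In runs added after seeing the data, 0 were lower and 1 higher with 500-bp peaks, and 27 lower and 9 higher with equal covered length; regions were not run in the other settings. For OSNK D1 to D3, the split share was 1.84%, 2.77% and 2.42% and the width ratio 1.19, 1.17 and 1.17 with a score of at least 100 and with the 2 equal numbers. For OySyNyK D3 to D5 they were 2.59%, 4.01% and 3.76%, and 0.98, 0.96 and 0.96. With 500-bp peaks, added after seeing the data, the split share was 0.266% for OSNK D1 to D3 and 0.659% for OySyNyK D3 to D5. No paired analysis was possible because each group has 1 library. Lists of unknown depth limit every share, since a site without a peak may still carry 5hmC.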
